A study of Mus musculus with 8 samples.

Results

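The genes described here are 30 genes of the endoplasmic reticulum (ER): lumen chaperones, disulfide isomerases and factors of ER-associated degradation (ERAD). They were chosen by name and function, with earlier results of these data known, and all 30 have a row among the 25766 entries of the table. Their RNA was measured in whole subcutaneous tumors of female C57BL/6J mice injected with MC38-OVA cells, a colon adenocarcinoma line of the same mouse strain modified to carry ovalbumin. Of 8 tumors, 4 grew from cells labelled shNT, the control hairpin, and 4 from cells labelled shXBP1, a hairpin against Xbp1. The hairpin was in the injected cells, so host cells of the tumor kept their Xbp1. The sources used here do not give the age of the mice, whether a hairpin line was a pool or a clone, or which mouse bore which tumor, and p-values therefore cover the spread among these samples, which may be technical. Values of 4 tumors are given in the order of tumors 1 to 4, and CPM is the count scaled to library size.

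Proteins that enter the secretory pathway fold in the ER with the help of the Hsp70 chaperone BiP (Hspa5) and its partners, the lectin chaperones calnexin and calreticulin, and disulfide isomerases. Those that fail to fold are pulled back to the cytosol and degraded, which is ERAD. XBP1, whose active form is made when IRE1 splices its mRNA, belongs to the unfolded protein response as a transcription factor and is known to drive many of these genes, together with ATF6. Gene counts do not separate the spliced from the unspliced form of Xbp1.

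A classical promoter element of such genes, the ER stress response element (ERSE), reads CCAAT, any 9 bases and CCACG. The factor NF-Y is known to bind its CCAAT part, and ATF6 or XBP1 its CCACG part. Both strands of RefSeq promoter windows of 300 bases (250 before to 50 after a start site, GRCm38.p6) were searched for it, for a second form called ERSE-II (ATTGG, any 1 base and CCACG), and for the core TGACGTGG of the unfolded protein response element. Of the 30 genes 27 had a window. ERSE was found for 10 of them, against 0.137% of 27025 genes with a window. ERSE-II was found for 2 (0.0444% of all genes), and the TGACGTGG core for 2 (0.714%). A match to ERSE and a match to ERSE-II can share bases, but no window of the 30 genes held both. These matches are descriptions of letters, not of binding. The stretches below hold the match of BiP, the paired matches of Hsp90b1, and those of the genes that passed the test between the groups and whose match lies before the start site. Capitals mark the fixed bases of the motif on either strand.
Hspa5 (chr2:34772020-34772048, + strand): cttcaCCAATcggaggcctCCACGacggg
Hsp90b1 (chr10:86705528-86705661, - strand): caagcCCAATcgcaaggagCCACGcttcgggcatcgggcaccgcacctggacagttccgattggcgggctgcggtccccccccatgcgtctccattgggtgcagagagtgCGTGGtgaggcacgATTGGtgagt
Calr (chr8:84847070-84847098, - strand): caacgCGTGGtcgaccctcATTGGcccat
Creld2 (chr15:88819515-88819543, + strand): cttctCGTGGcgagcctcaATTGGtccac
Syvn1 (chr19:6046527-6046555, + strand): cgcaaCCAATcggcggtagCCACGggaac
Ero1lb (chr13:12565677-12565705, + strand): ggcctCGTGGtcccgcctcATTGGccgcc
Herpud1 (chr8:94386372-94386392, + strand): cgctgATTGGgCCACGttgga
Txndc11 (chr16:11134622-11134639, - strand): gtggcTGACGTGGagagt
The Herpud1 match is ERSE-II and the Txndc11 match is the TGACGTGG core. The others are ERSE. In the GENCODE M21 annotation the genes of Hspa5 and Txndc11 begin before these matches, so there the stretches lie inside the gene. Canx, Dnajc3, Pdia6 and Derl3 also had an ERSE, Txndc5 the TGACGTGG core, and Dnajb11 an ERSE-II just after its start site.

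Total counts were 29070605 to 36012997 per tumor. Xbp1 stood at 97.3, 96.0, 103 and 109 CPM in shNT against 77.2, 76.0, 73.7 and 56.6 CPM in shXBP1 tumors. All shXBP1 tumors lay below all shNT tumors (log2 fold change -0.51, SE 0.10, adjusted p = 0.00255). Markers of other cells moved with the groups. Leukocyte markers were higher for 8 of 8 genes, with a summed level of 564 to 726 CPM in shNT and 1126 to 1873 CPM in shXBP1 tumors. T cell markers were higher for 8 of 8 (summed 32.6 to 64.0 and 90.6 to 276 CPM) and macrophage markers for 9 of 10 (summed 703 to 986 and 1228 to 2244 CPM). Fibroblast markers were higher for 6 and lower for 1 of 10 (summed 2032 to 3333 and 6223 to 8334 CPM). Most of the rise in that sum was Col3a1 (1580 and 5165 CPM) and Dcn (305 and 1041 CPM). Col1a1 (142 and 148 CPM) and Col1a2 (479 and 399 CPM) did not pass, and Postn (115 and 67.7 CPM) was the marker that fell. Endothelial markers were higher for 4 of 8 (summed 50.9 to 63.0 and 102 to 114 CPM). Proliferation markers were lower for 4 of 8 (summed 2597 to 2819 and 1945 to 2418 CPM). Of 10 epithelial and colon markers 4 were tested and 1 was higher, Lgals4 (4.01 and 6.10 CPM), with a sum of 10.0 to 12.3 and 14.0 to 16.4 CPM that did not overlap. Lgals4 and Cdh1 (5.93 and 8.31 CPM, not passed) made up most of that sum, while Cdx1 and Cdx2 were at 0 in all 8 tumors and Epcam, Krt8 and Krt18 were below 1 CPM in each. Of 11 B and plasma cell markers 4 were tested and 2 were higher, Prdm1 (3.99 and 8.81 CPM) and Cd79b (0.243 and 0.890 CPM). Their sum of 96.8 to 121 and 117 to 139.8 CPM was mostly Sdc1 (103 and 116 CPM, not passed), which epithelial cells also express, and Mzb1, Jchain and Tnfrsf17 were below 1 CPM in each tumor. Skeletal muscle markers were higher for 1 of 6, with a sum of 70.2 CPM in shXBP1 tumor 4 and 9.67 to 33.0 CPM in the other 7 tumors. None of 5 erythrocyte markers passed the edgeR test (summed 18.0 to 105 and 13.9 to 57.0 CPM). The library of shXBP1 tumor 4 stood apart: the chi-square of its counts against the others of its group was 51.4 to 86.6 per degree of freedom, against 16.3 to 34.6 for all other pairs within a group. Ptprc, the leukocyte antigen CD45, was at 59.4, 42.6, 66.5 and 56.4 CPM in shNT against 156, 193, 171 and 94.8 CPM in shXBP1 tumors, and its lowest value in each group was in shNT tumor 2 and shXBP1 tumor 4. In whole tumors, fewer cells of a type and less RNA per cell cannot be told apart.

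Among the 30 genes, 29 passed the filter on low counts, 10 were higher in shXBP1 tumors, 2 were lower, and 17 did not pass the test. The test was edgeR's quasi-likelihood test with Benjamini-Hochberg adjustment over 14907 genes at a threshold of 0.05. Of all genes tested, 16.9% were higher and 13.1% were lower, so a call in either direction was frequent in these tumors. The genes that rose were Sdf2l1, Dnajb11, Calr, Pdia3, Pdia4, Creld2, Ero1lb, Edem1, Syvn1 and Sel1l, and those that fell were Herpud1 and Txndc11. Fold changes were small. None of the 29 changed by 1.5-fold in the fit without a covariate, against 21.0% of all genes. Their median log2 fold change was 0.11, against -0.01 over all genes, and their median size regardless of sign was 0.21, against 0.24. The median SE of the 29 was 0.0944 and that of all genes 0.122 on the log2 scale. The groups of tumors did not overlap for 12 of 29, against 30.2% of all genes. Leaving out a single tumor lowered the 10 to 6 (shNT tumor 1 or 4) or to 5 (shNT tumor 2 or 3, shXBP1 tumor 1 or 3). Without shXBP1 tumor 2 the calls of Pdia3, Ero1lb and Edem1 were lost. Without shXBP1 tumor 4, 12 genes rose and 3 fell. The share of all genes called with a tumor left out is not given here, so these counts cannot be set against it. Of the 12 calls, 6 were kept whichever tumor was left out: Sdf2l1, Pdia4, Creld2, Sel1l, Herpud1 and Txndc11.

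When the log2 CPM of Ptprc entered the edgeR fit, 0 of the 29 genes were called higher and 0 lower, against 0.899% and 0.711% of all genes. At an unadjusted p under 0.05, 2 had a positive and 3 a negative change, and the share of all genes under that cutoff is not given here. The 2 were Edem2 and Syvn1, and the 3 were Dnajc3, Manf and Derl2. The median log2 fold change of the 29 was then -0.11, with 11 positive and 18 negative. The median and the share of positive changes over all genes in that fit are not given here. The SE of a gene was 2.26 times as large at the median over all genes, and Ptprc itself did not overlap between the groups. The part of fibroblasts, endothelial cells, epithelial, B, plasma or muscle cells and proliferation in the values below was not tested.

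**Figure D1:**
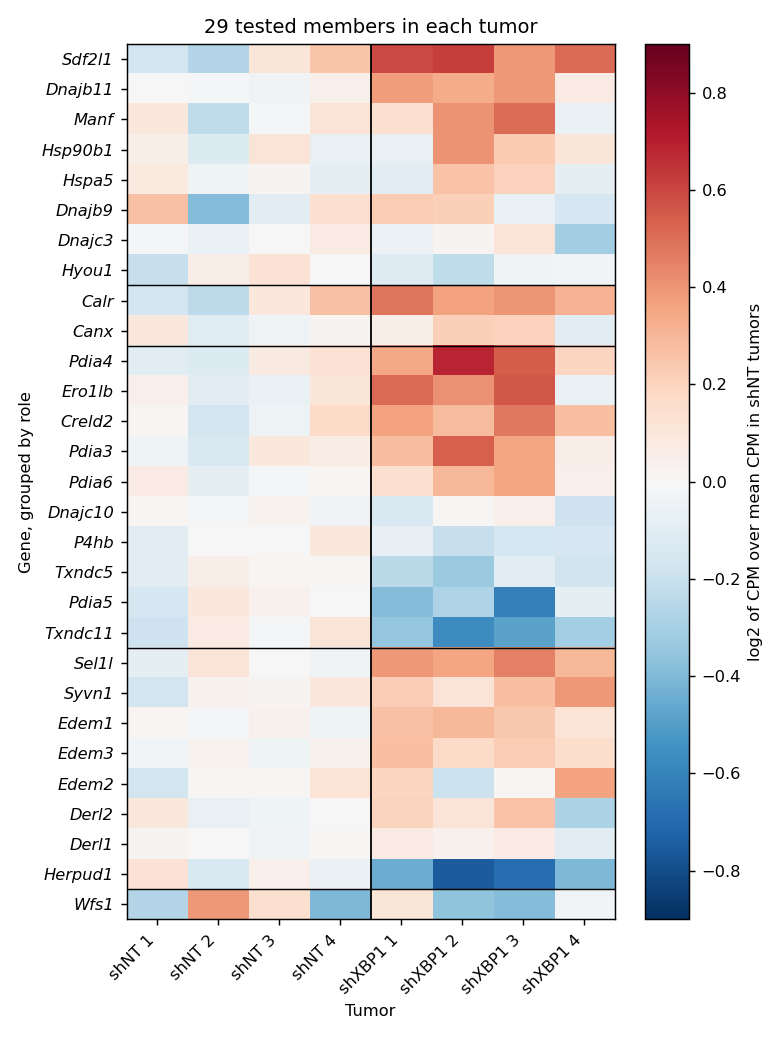
Each row is 1 of the 29 tested genes, grouped by role (BiP system, lectin chaperones, disulfide isomerases and oxidation, ERAD, Wfs1), and each column is 1 tumor. Color gives the log2 of the gene's CPM over its mean in the 4 shNT tumors. The rows of Sdf2l1, Calr, Pdia4, Creld2 and Sel1l are red in all 4 shXBP1 tumors, and those of Herpud1 and Txndc11 are blue in all 4. Dnajb11, Pdia3, Pdia6, Syvn1, Edem1 and Edem3 also lie above the shNT mean in all 4, in part only slightly. Hyou1, P4hb, Txndc5 and Pdia5 also lie below it in all 4. In many rows shXBP1 tumor 4 is paler or bluer than its group.

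In the BiP system, 2 of 8 genes rose, Sdf2l1 and Dnajb11, and 6 did not pass. Their products bind each other and assist BiP with client proteins. Sdf2l1 (ENSMUSG00000022769, chromosome 16, 17130138 to 17132383, minus strand) was at 24.3, 22.7, 29.4 and 32.4 CPM in shNT against 41.2, 42.0, 35.7 and 38.7 CPM in shXBP1 tumors. Each shXBP1 tumor lay above every shNT tumor, and the gene was 1.45-fold higher (log2 fold change 0.53, SE 0.12, adjusted p = 0.00464). Dnajb11 (ENSMUSG00000004460, chromosome 16, 22857845 to 22879634, plus strand), which encodes the co-chaperone ERdj3, was at 101, 100.4, 99.4 and 105 CPM in shNT against 131, 128, 133 and 107 CPM in shXBP1 tumors. It was 1.23-fold higher (log2 fold change 0.30, SE 0.08, adjusted p = 0.0170), and shXBP1 tumor 4 stood just above the highest shNT tumor. The Dnajb11 call did not hold without shNT tumor 3 (adjusted p = 0.0531) or shXBP1 tumor 3 (adjusted p = 0.0583), and with the Ptprc covariate its log2 fold change was -0.02. That of Sdf2l1 was then 0.30, on the same side.

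BiP itself showed no shift beyond its spread. Hspa5 was at 854, 784, 821 and 764 CPM in shNT against 750.3, 964, 928 and 761 CPM in shXBP1 tumors. The shXBP1 tumors fell into a higher pair, 2 and 3, and a pair just below the shNT range, 1 and 4. The fold of shXBP1 over shNT had a 95% interval of 0.910 to 1.23 (adjusted p = 0.588). Hsp90b1, the ER paralog of the Hsp90 chaperones, was at 906, 799, 945 and 833 CPM in shNT against 832, 1154, 1026 and 939 CPM in shXBP1 tumors, with the same pair highest (interval of the fold 0.967 to 1.33, adjusted p = 0.220). Hyou1, which exchanges the nucleotide of BiP, was at 118, 142, 148 and 135 CPM in shNT against 125, 116, 133 and 134 CPM in shXBP1 tumors (interval 0.820 to 1.07, adjusted p = 0.437). Its groups overlapped over most of their range.

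Dnajb9, which encodes ERdj4 and is among the best known targets of XBP1, stood at 22.6, 14.4, 17.6 and 20.9 CPM in shNT against 22.1, 21.9, 18.1 and 17.0 CPM in shXBP1 tumors. The lowest and the highest of all 8 values were both in shNT tumors, and the interval of the fold was 0.841 to 1.31 (adjusted p = 0.762). Its log2 fold change, 0.07, turned to -0.04 without shNT tumor 2. Dnajc3, the co-chaperone p58IPK, was at 99.7, 96.9, 101 and 106 CPM in shNT against 97.4, 102, 109.6 and 81.4 CPM in shXBP1 tumors, where shXBP1 tumor 4 was the lowest of all (interval 0.843 to 1.11, adjusted p = 0.742). Manf, a small ER protein that binds BiP and can be secreted, was at 152, 122, 142 and 156 CPM in shNT against 158, 189, 203 and 137 CPM in shXBP1 tumors. Manf did not pass (log2 fold change 0.27, SE 0.12, adjusted p = 0.123), while its log2 fold change was 0.37 without shXBP1 tumor 4 (adjusted p = 0.0159).

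The lectin chaperones hold newly made glycoproteins until they fold, calnexin in the membrane and calreticulin in the lumen. Calr (ENSMUSG00000003814, chromosome 8, 84841850 to 84846934, minus strand) rose and Canx did not pass. Calr was at 717, 686, 864 and 971 CPM in shNT against 1128, 1038, 1067 and 1006 CPM in shXBP1 tumors, so that the groups did not overlap, with shNT tumor 4 nearest to the shXBP1 tumors. It was 1.31-fold higher (log2 fold change 0.39, SE 0.11, adjusted p = 0.0192), and the adjusted p passed 0.05 on leaving out shNT tumor 1 (adjusted p = 0.0551), shNT tumor 2 (0.0619) or shXBP1 tumor 1 (0.0561). Its log2 fold change with the Ptprc covariate was 0.14, which did not pass. Canx ranged over 954 to 1108 CPM in shNT and 964 to 1193 CPM in shXBP1 tumors (interval of the fold 0.933 to 1.23, adjusted p = 0.441). The ratio of Calr to Canx in FPKM, the authors' level per gene length and library size, averaged 1.38 ± 0.222 in shNT and 1.69 ± 0.165 in shXBP1 tumors (SD, n = 4 each), and the groups overlapped, since shNT tumor 4 exceeded shXBP1 tumors 2 and 3.

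Among 10 genes of disulfide exchange and oxidation, 4 rose, 1 fell and 5 did not pass. Pdia4 (ENSMUSG00000025823, chromosome 6, 47796141 to 47813430, minus strand), the isomerase ERp72, was at 106, 105, 121 and 125 CPM in shNT against 146, 184, 167 and 131 CPM in shXBP1 tumors. All shXBP1 tumors lay above all shNT tumors, by the smallest margin in shXBP1 tumor 4, and Pdia4 was 1.37-fold higher (log2 fold change 0.46, SE 0.11, adjusted p = 0.00749). Pdia3 (ENSMUSG00000027248, chromosome 2, 121413775 to 121438687, plus strand), the isomerase ERp57 that works with both lectin chaperones, was at 677, 633, 746 and 731 CPM in shNT against 843, 1009, 889.9 and 726 CPM in shXBP1 tumors. It was 1.24-fold higher (log2 fold change 0.32, SE 0.10, adjusted p = 0.0385), although shXBP1 tumor 4 lay inside the shNT range. Creld2 (ENSMUSG00000023272, chromosome 15, 88819646 to 88826683, plus strand), an ER stress-induced protein with isomerase-like motifs, was at 70.3, 61.8, 67.1 and 78.1 CPM in shNT against 89.1, 84.5, 96.3 and 83.7 CPM in shXBP1 tumors. Its groups did not overlap, and it was 1.27-fold higher (log2 fold change 0.35, SE 0.09, adjusted p = 0.0102). Ero1lb (ENSMUSG00000057069, chromosome 13, 12565874 to 12611396, plus strand), an oxidase that recharges the isomerases, was at 26.8, 24.1, 24.9 and 27.9 CPM in shNT against 36.8, 34.5, 38.3 and 24.8 CPM in shXBP1 tumors. In shXBP1 tumors 1 to 3 it exceeded every shNT tumor, in tumor 4 it was among the shNT values, and over the group it was 1.30-fold higher (log2 fold change 0.37, SE 0.13, adjusted p = 0.0415). The Pdia3 and Ero1lb calls were each lost when any of shNT tumors 1 to 4 or shXBP1 tumors 1 to 3 was left out (adjusted p = 0.0559 to 0.109 for Pdia3 and 0.0532 to 0.127 for Ero1lb). With the Ptprc covariate the log2 fold changes of Pdia3, Pdia4 and Ero1lb turned negative (-0.26, -0.11 and -0.29), and that of Creld2 was 0.16. None of these passed in that edgeR fit (adjusted p = 0.517, 0.819, 0.606 and 0.737 in that order).

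Txndc11 (ENSMUSG00000022498, chromosome 16, 11074911 to 11134650, minus strand), a membrane-bound thioredoxin-domain protein, was the member of this group that fell. It was at 38.0, 45.5, 42.7 and 47.0 CPM in shNT against 34.0, 29.3, 31.1 and 35.1 CPM in shXBP1 tumors, without overlap, and was 1.34-fold lower (log2 fold change -0.42, SE 0.09, adjusted p = 0.00547). With the Ptprc covariate its log2 fold change was -0.11 (adjusted p = 0.838). Pdia5, another isomerase, ranged over 20.0 to 23.7 CPM in shNT and 14.4 to 20.9 CPM in shXBP1 tumors (log2 fold change -0.33, adjusted p = 0.0564, and 0.0131 without shXBP1 tumor 4). Txndc5, a thioredoxin-domain protein of the lumen, ranged over 268 to 298 CPM in shNT and 226 to 268 CPM in shXBP1 tumors, without overlap by less than 1 CPM, and did not pass (log2 fold change -0.21, adjusted p = 0.0599). P4hb, the founding isomerase PDI and a subunit of prolyl 4-hydroxylase, ranged over 667 to 766 CPM in shNT and 621 to 681 CPM in shXBP1 tumors (interval of the fold 0.805 to 1.02). These 3 genes all had lower mean levels in shXBP1 tumors. Pdia6, an isomerase also known as P5, ranged over 304 to 339 CPM in shNT and 332 to 411 CPM in shXBP1 tumors (log2 fold change 0.21, adjusted p = 0.0800, and 0.0213 without shXBP1 tumor 4). Dnajc10, the reductase ERdj5, ranged over 166 to 174 CPM in shNT and 149 to 175 CPM in shXBP1 tumors (interval 0.853 to 1.07). The ratio of Pdia4 to P4hb in FPKM was 0.190, 0.175, 0.201 and 0.195 in shNT against 0.255, 0.353, 0.310 and 0.242 in shXBP1 tumors. Every shXBP1 tumor exceeded every shNT tumor in this ratio, which is given as a description.

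**Figure D2:**
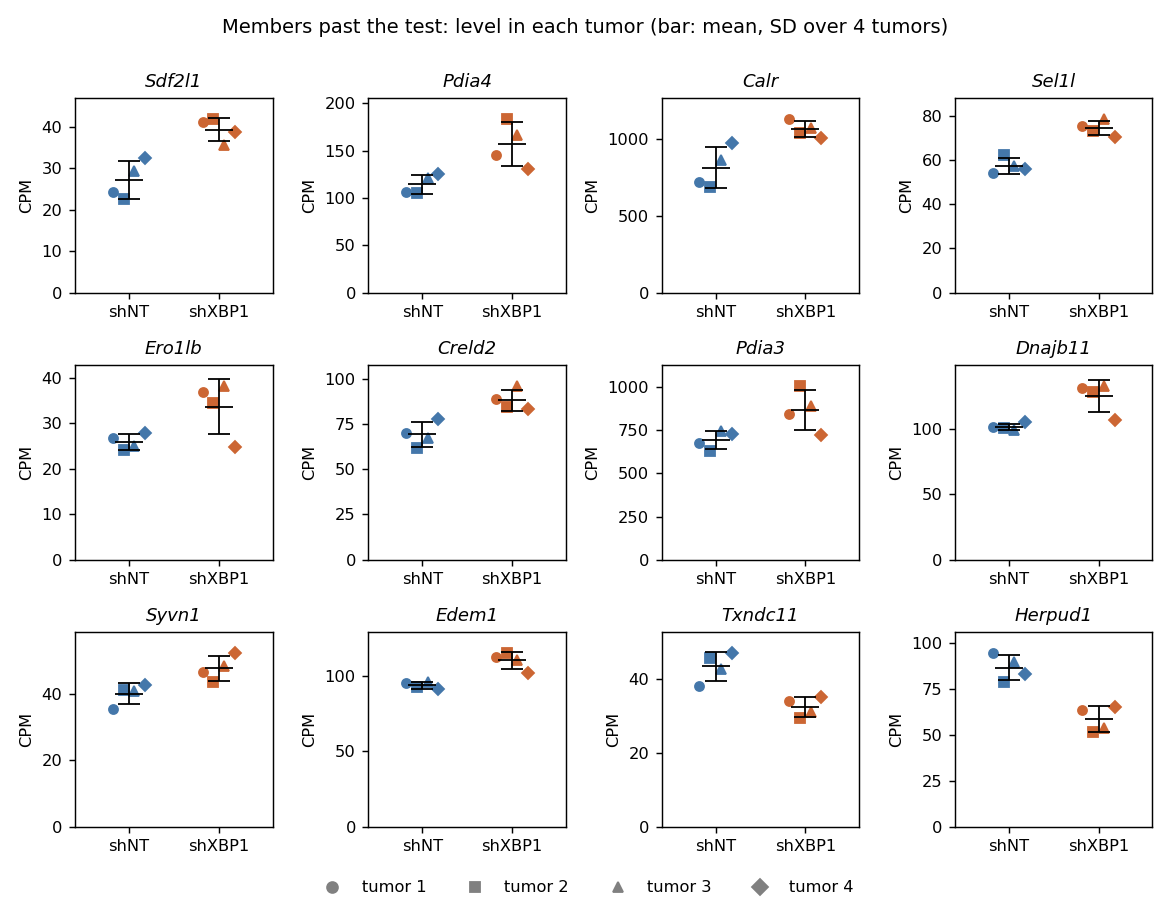
Each panel shows 1 of the 12 genes that passed the test, with CPM on an axis from 0, the 2 groups on the horizontal axis, 1 symbol per tumor, and bars for the mean and SD over 4 tumors. Pdia3 and Ero1lb are the panels in which the groups overlap, through shXBP1 tumor 4, while Herpud1 and Txndc11 are the panels with lower values in shXBP1 tumors.

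Of 9 ERAD genes, 8 passed the filter on low counts. Among these 3 rose (Sel1l, Syvn1 and Edem1), 1 fell (Herpud1) and 4 did not pass. Syvn1 encodes the ubiquitin ligase HRD1 and Sel1l the adaptor that holds its complex together. Sel1l (ENSMUSG00000020964, chromosome 12, 91806043 to 91849157, minus strand) was at 53.9, 62.2, 57.3 and 56.2 CPM in shNT against 75.3, 73.4, 78.7 and 70.6 CPM in shXBP1 tumors. Each shXBP1 tumor exceeded every shNT tumor, and Sel1l was 1.30-fold higher (log2 fold change 0.38, SE 0.08, adjusted p = 0.00320). Syvn1 (ENSMUSG00000024807, chromosome 19, 6046576 to 6053712, plus strand) was at 35.7, 41.3, 40.9 and 43.0 CPM in shNT against 46.9, 43.7, 48.5 and 52.7 CPM in shXBP1 tumors, again without overlap but by a small margin between shNT tumor 4 and shXBP1 tumor 2. It was 1.19-fold higher (log2 fold change 0.25, SE 0.09, adjusted p = 0.0479). The ratio of Sel1l to Syvn1 in FPKM averaged 0.801 ± 0.0424 in shNT and 0.863 ± 0.0727 in shXBP1 tumors (SD, n = 4 each), with overlap. The Syvn1 call was lost without any of shNT tumors 1 to 4 or shXBP1 tumors 1, 3 or 4 (adjusted p = 0.0519 to 0.129). The log2 fold change of Syvn1 with the Ptprc covariate was 0.52 (adjusted p = 0.194).

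Herpud1 (ENSMUSG00000031770, chromosome 8, 94386438 to 94395377, plus strand), a membrane protein that brings other factors to the same ligase complex, moved the other way. It was at 94.9, 79.0, 89.6 and 83.4 CPM in shNT against 63.6, 51.5, 53.9 and 65.5 CPM in shXBP1 tumors. All shXBP1 tumors lay below all shNT tumors, and Herpud1 was 1.48-fold lower (log2 fold change -0.56, SE 0.10, adjusted p = 0.00121), which is the smallest adjusted p among the 29 genes. With the Ptprc covariate its log2 fold change was -0.37 (adjusted p = 0.419) and that of Sel1l was 0.37 (0.335), each with its sign kept. Within a tumor, the ratio of Sel1l to Herpud1 in FPKM was 0.176, 0.250, 0.200 and 0.214 in shNT against 0.367, 0.440, 0.454 and 0.343 in shXBP1 tumors. The highest shNT value was below the lowest shXBP1 value. Neither gene overlapped between the groups and their changes were opposite, so this separation was fixed in advance. The ratio is given as a description.

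The EDEM proteins recognize or trim the mannose of glycoproteins that are to be degraded. Edem1 (ENSMUSG00000030104, chromosome 6, 108828641 to 108859356, plus strand) was at 94.9, 92.2, 95.9 and 91.1 CPM in shNT against 112, 115, 111 and 102 CPM in shXBP1 tumors. The shNT tumors lay close together and all shXBP1 tumors above them, so that a change of 1.18-fold passed the test (log2 fold change 0.23, SE 0.07, adjusted p = 0.0256). Leaving out shNT tumor 2, 3 or 4 or shXBP1 tumor 1, 2 or 3 ended this call (adjusted p = 0.0541 to 0.0666), and with the Ptprc covariate the log2 fold change was 0.03 (adjusted p = 0.950). Edem3 ranged over 37.2 to 39.5 CPM in shNT and 42.9 to 46.4 CPM in shXBP1 tumors, also without overlap, and lay at the threshold (log2 fold change 0.21, adjusted p = 0.0505, and 0.0376 without shXBP1 tumor 4). Edem2 ranged over 29.2 to 35.6 CPM in shNT and 28.7 to 42.0 CPM in shXBP1 tumors (interval of the fold 0.905 to 1.29).

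Derlins form part of the channel through which ERAD substrates leave the ER. Derl1 ranged over 124 to 129 CPM in shNT and 118 to 134 CPM in shXBP1 tumors and had an interval of the fold of 0.913 to 1.13. Derl2 ranged over 68.2 to 76.7 CPM in shNT and 58.5 to 85.1 CPM in shXBP1 tumors (interval 0.900 to 1.25). Derl3, the derlin typical of secretory cells, was below the filter and was not tested. Its raw counts were 0, 5, 3 and 6 in shNT against 3, 25, 8 and 6 in shXBP1 tumors, so that only shXBP1 tumor 2 stood above the rest. Wfs1, wolframin, a membrane protein of the ER that is mutated in a form of diabetes, was low, at 8.51 to 14.7 CPM in shNT and 8.60 to 12.1 CPM in shXBP1 tumors (interval 0.680 to 1.20, adjusted p = 0.587). Of the 17 genes that did not pass, 16 had a 95% interval that stayed within 1.5-fold in both directions.

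**Figure D3:**
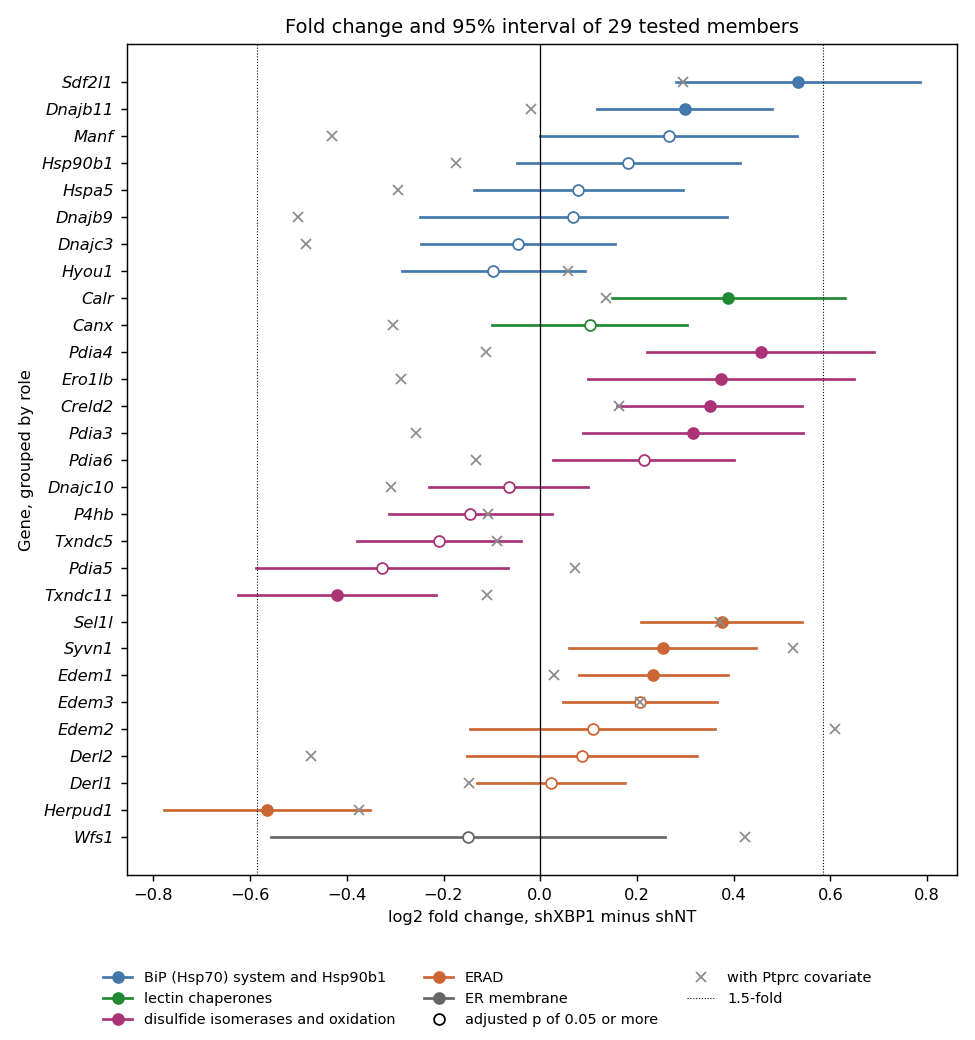
Points show the log2 fold change (shXBP1 minus shNT) of the 29 tested genes by role, with lines for 95% intervals, filled where the adjusted p was below 0.05. Crosses show the fit with Ptprc as a covariate and dotted lines mark 1.5-fold. No point lies beyond 1.5-fold, and the crosses of many chaperones lie left of their points while those of Sel1l and Edem3 lie on them.

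The levels of these genes spanned a wide range. In FPKM over the 4 shNT tumors (mean ± SD, n = 4), Calr was highest at 327 ± 47.4, followed by Hsp90b1 at 272 ± 17.1, Hspa5 at 245 ± 15.9, Canx at 238 ± 10.6, Pdia3 at 222 ± 11.9 and P4hb at 221 ± 13.3. Neighbours among these 6 overlapped over the shNT tumors. Pdia6 followed at 131 ± 3.51 and Txndc5 at 89.0 ± 6.06, each separate from its neighbours. At the low end were Sel1l at 8.31 ± 0.806, Dnajb9 at 6.74 ± 1.13, Ero1lb at 6.28 ± 0.275, Edem3 at 5.37 ± 0.272 and Wfs1 at 2.63 ± 0.750, with Derl3 at 0.0613 ± 0.0479. Over the whole order, 20 of 29 pairs of neighbours overlapped and 9 did not. The order was close to the same in shXBP1 tumors: 14 of 30 genes held their place, and the largest shift was 3 places, for Herpud1, from 13 to 16.

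**Figure D4:**
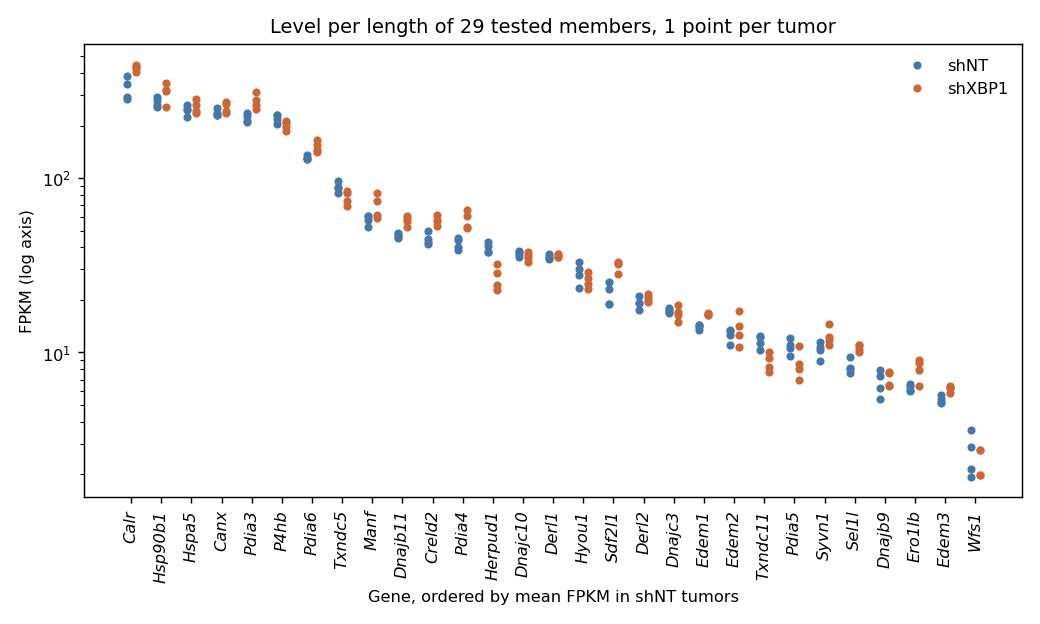
FPKM on a log axis for the 29 tested genes, ordered by their mean in shNT tumors, with 1 point per tumor and color for the group. The 6 most abundant genes, from Calr to P4hb, lie close together, a step separates them from Pdia6, and Wfs1 lies lowest.

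Summed over the 30 genes, the level was 7049.8, 6652, 7258 and 7308 CPM in shNT against 7569, 8294, 8176 and 7149 CPM in shXBP1 tumors. The mean of shXBP1 over that of shNT was 1.10, and shXBP1 tumor 4 lay inside the shNT range. Most of this sum is made of the abundant chaperones and isomerases. The BiP system with Hsp90b1 summed to 2279, 2081, 2303 and 2152 CPM in shNT against 2158, 2717, 2586 and 2215 CPM in shXBP1 tumors, where shXBP1 tumors 2 and 3 stood above the other 6 tumors. ERAD genes summed to 553, 542, 548 and 549 CPM in shNT against 598, 565, 589 and 553 CPM in shXBP1 tumors. The shNT tumors lay within a narrow range, and shNT tumor 1 (552.51 CPM) all but met shXBP1 tumor 4 (552.65 CPM). Of the 29 genes, 17 were lowest of the group in shXBP1 tumor 4 and 11 were highest in shXBP1 tumor 3. In the shNT group 14 were lowest in tumor 2 and 13 were highest in tumor 4. The shares of all genes that were lowest or highest in these tumors are not given here. These counts therefore cannot be set against them. The coefficient of variation over 4 tumors had a median of 7.09% in shNT and 9.84% in shXBP1 tumors, and it was larger in shXBP1 for 19 of 29 genes. This difference in spread was not tested. The spread of all genes is not given here, so the difference cannot be called particular to these genes.

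**Figure D5:**
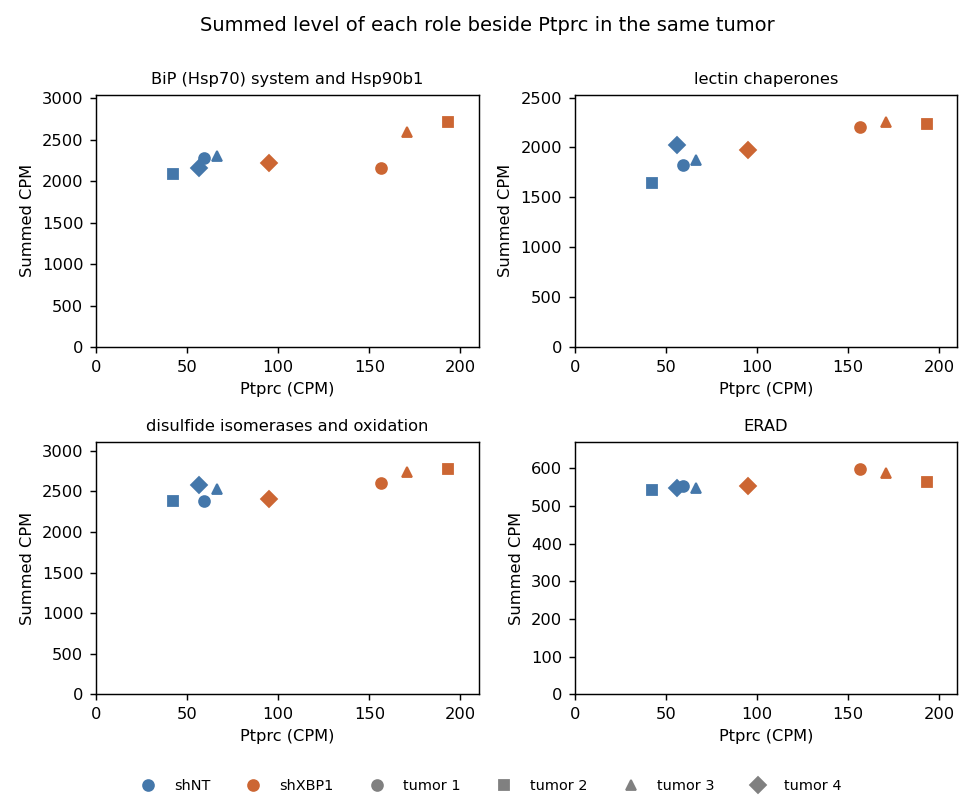
Summed CPM of the genes of each role (vertical axis, from 0) beside the CPM of Ptprc in the same tumor (horizontal axis), 1 symbol per tumor and color for the group. The tumor of each group with the lowest Ptprc, shNT tumor 2 and shXBP1 tumor 4, has the lowest sum of its group for the lectin chaperones, the disulfide isomerases and ERAD. For the BiP system this holds for shNT tumor 2 only, since shXBP1 tumor 1 is the lowest of its group (2158 CPM, against 2215 CPM in tumor 4). The tumors with the highest Ptprc, shNT tumor 3 and shXBP1 tumor 2, have the highest BiP system sum of their group. For the disulfide isomerases this holds for shXBP1 tumor 2 only. For the lectin chaperones shNT tumor 4 and shXBP1 tumor 3 are highest, and for ERAD tumor 1 of each group. A link of these sums to Ptprc was not tested.

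Set beside the promoter letters shown above, calls were found with and without a match. Of the 10 genes with an ERSE, 9 were tested: 4 rose (Calr, Creld2, Ero1lb and Syvn1), 0 fell and 5 did not pass, with a median log2 fold change of 0.21 and a range from -0.05 to 0.39. Of the 17 with a window but no ERSE, 6 rose, 2 fell and 9 did not pass, with a median of 0.09 and a range from -0.56 to 0.53. Over all genes tested the median was -0.01. Both genes that fell, Herpud1 with ERSE-II and Txndc11 with the TGACGTGG core, carried a motif other than ERSE. Dnajb11, the other gene with an ERSE-II, rose, and Txndc5, the other with the TGACGTGG core, did not pass (log2 fold change -0.21). Hyou1, Manf and Derl1 had no window in the table. The difference between these sets was not tested.

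Other genes of ER protein quality control were taken from a list of 84 symbols, of which 78 have a row and 73 passed the filter on low counts. Of these, 3 rose, 8 fell and 62 did not pass, that is 4.11% and 11.0% against 16.9% and 13.1% of all genes. The median log2 fold change was 0.00. Os9 (chosen by rule, as are the genes that follow), the lectin that passes ERAD glycoproteins to the HRD1 complex, rose from 96.7 ± 9.19 to 126 ± 6.88 CPM (SD, n = 4 each; log2 fold change 0.38, SE 0.08, adjusted p = 0.00500). Uggt1, which marks unfolded glycoproteins for another round with the lectin chaperones, rose (log2 fold change 0.35, SE 0.08, adjusted p = 0.00760). Txndc16, an ER thioredoxin-domain protein, rose (log2 fold change 0.34, SE 0.11, adjusted p = 0.0371). Fam8a1, a cofactor of the HRD1 complex, fell from 84.1 ± 3.46 to 52.4 ± 8.34 CPM (log2 fold change -0.68, SE 0.11, adjusted p = 0.000650). Nploc4, a cofactor of the ATPase that extracts ERAD substrates, fell (log2 fold change -0.61, SE 0.09, adjusted p = 0.000384). Fkbp11 (log2 fold change -0.50, SE 0.11, adjusted p = 0.00496) and Fkbp10 (log2 fold change -0.37, SE 0.11, adjusted p = 0.0198), prolyl isomerases of the ER, fell, as did Ube2j2, a ubiquitin-conjugating enzyme of the ER membrane (log2 fold change -0.25, SE 0.07, adjusted p = 0.0189). Leaving out a single tumor lowered the 8 that fell to 4 (shNT tumor 2 or shXBP1 tumor 3) or to 5 (shNT tumor 3 or shXBP1 tumor 2), and raised the 3 that rose to 6 (shXBP1 tumor 4). For these fits the share of all genes called is not given here. With the Ptprc covariate edgeR called 0 higher and 1 lower, and at an unadjusted p under 0.05 there were 2 higher. The number lower and the share of all genes at that unadjusted cutoff are not given here.

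The authors' deposited table gives a fold change for 29 of the 30 genes, all but Derl3. An adjusted p below 0.05 is given for 16 of the 29 in the authors' deposited table, and 0 pass the cutoffs of 0.01 and 2-fold named in its header. The shares of all 13307 genes with an authors' value that pass these cutoffs are not given here. The 2 counts therefore cannot be set against them. The authors' deposited table has Herpud1 at -0.55, Sel1l at 0.38 and Hspa5 at 0.08 on the log2 scale.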

How the data were processed

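The authors deposited 1 table with, per the file headers, a raw count and an FPKM value per gene for each of 8 tumors, and a DESeq2 comparison whose log2 fold change and adjusted p are given for 13307 genes. The FPKM were computed by the authors, and were used for levels between genes and 1 alternative. GRCm38 is named in the submitters' processing notes. How reads were aligned and counted, with which annotation and strand setting, is not stated in the sources used here. Of the nonzero counts 0.817% equalled 1 and 3.21% equalled 2, so a count may not be a single read.

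The low-count filter was filterByExpr in edgeR (version 4.0.16, R 4.3.3), which left 14907 of 25766 entries. TMM factors lay between 0.980 and 1.04. Groups were compared with edgeR's robust quasi-likelihood test, two-sided, over all 8 tumors and without a covariate, and p-values were adjusted by Benjamini-Hochberg across every gene tested. CPM use these factors, and SD is over 4 tumors. The 95% intervals use the moderated degrees of freedom. Alternatives were DESeq2 (version 1.42.0), limma (version 3.58.1) on voom values or on log2(FPKM + 1), RLE factors, other filters, non-robust dispersions, a block for the tumor number, Ptprc or 1 surrogate variable (sva, version 3.50.0) as a covariate, and leaving out each tumor. The members, lists and tests were chosen with earlier results of these data known. Values in every tumor are given for each gene called and for the best known targets of the unfolded protein response, and ranges for the others. Of the other quality control genes, up to 5 called in each direction with the smallest p are named. Coordinates are from GENCODE M21 (GRCm38), and promoter windows from RefSeq (GRCm38.p6), where Ero1lb was matched through its newer symbol. In a simulation of the shXBP1 against shNT comparison with 14712 genes, 200 genes were set to change before the filter. Recovered were 54.5% of 66 genes with a simulated 1.5-fold change and 76.8% of 69 with a 2-fold change, while 6.29% of calls were false. In the tumors 30.0% of all genes tested were called, a far larger share than was set to change. The adjusted p threshold was therefore harder to pass in the simulation, and its recovery rates may not hold for the real comparison. Libraries of a group differed by more than sampling noise (chi-square of counts 16.3 to 86.6 per degree of freedom, highest in pairs with shXBP1 tumor 4).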

Additional observations from a re-analysis of the deposited data

How the results depend on the processing

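Of the 29 tested genes, 10 were higher and 2 lower in shXBP1 tumors. With 1 tumor left out, 5 to 12 were higher and 2 to 3 were lower, and the other quality control genes gave 2 to 6 higher and 4 to 9 lower, against 3 and 8 with all tumors. With the tumor number as a replicate block, 5 of the 29 were higher (13.7% of all genes) and 4 of the other genes lower (8.75%). The numbers do not pair the tumors: deviations of tumors with the same number correlated at -0.14 to -0.02. With the Ptprc covariate 0 were higher and 0 lower, and of the other genes 0 were higher and 1 lower. DESeq2 and the fit with 1 surrogate variable each called 4 of the 29 lower, adding Pdia5 and Txndc5. Both also added Edem3 as higher, the surrogate variable fit added Pdia6 as well, and neither fit lost any of the 10. The surrogate variable gave 5 other genes higher. Of all genes, 18.9% were higher and 17.5% lower in that fit. A filter of 10 CPM in 4 libraries gave 6 other genes higher, and limma on log2(FPKM + 1) gave 3 other genes lower. The cause was not tested. For DESeq2, the filter of 10 CPM, limma and the fits with 1 tumor left out, the share of all genes called is not given here. Of the 12 calls, 6 (Sdf2l1, Pdia4, Creld2, Sel1l, Herpud1 and Txndc11) were kept under all 18 alternatives but the Ptprc covariate. With that covariate the log2 fold change changed sign for Hspa5 (-0.29), Hyou1 (0.058), Dnajb9 (-0.50), Dnajb11 (-0.020), Manf (-0.43), Hsp90b1 (-0.17), Canx (-0.30), Pdia3 (-0.26), Pdia4 (-0.11), Pdia5 (0.072), Pdia6 (-0.13), Ero1lb (-0.29), Derl1 (-0.15), Derl2 (-0.47) and Wfs1 (0.42). With 1 tumor left out the log2 fold change ranged over -0.042 to 0.17 for Dnajb9 and -0.26 to 0.0079 for Wfs1, each turning without shNT tumor 2, and over -0.11 to 0.039 for Dnajc3, turning without shXBP1 tumor 4. The summed level of the 30 genes (shXBP1 over shNT) was 1.10 with RLE factors and 1.11 without Canx, the gene with the highest CPM. Derl3, with at most 25 counts in a tumor, was the 1 gene of the 30 below the count filter.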
